A study of Mus musculus with 12 samples.

Results

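The genes described here are the lipolysis enzymes and their regulators: Pnpla2, Lipe, Mgll, Abhd5, G0s2, Adrb3, Pde3b, Angptl4, Lpl and Gpihbp1. They were taken by gene symbol from the expression tables of gonadal white adipose tissue (WAT), gastrocnemius muscle and liver, and all 10 were found among the 22249 symbols present in all 3 tissues. Male C57BL/6J mice were either GRf/f, in which exon 3 of the glucocorticoid receptor gene Nr3c1 is flanked by loxP sites, or GRmKO, which carry the same floxed alleles together with a Cre recombinase driven by the Acta1 promoter, so that the receptor is deleted in myofibers and not in adipocytes or hepatocytes. From 8 weeks of age, both genotypes drank for 4 weeks either vehicle (1% ethanol in water) or corticosterone (CORT) at 100 µg/mL in the same vehicle. Each of the 12 groups (3 tissues, 2 genotypes, vehicle or CORT) was 1 library, made from RNA pooled from 3 mice. There was therefore no replicate of any group, no test between groups was possible, and whether the tissues came from the same mice is not stated in the sources used here.

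Lipolysis is the stepwise removal of fatty acids from stored triglyceride. In adipocytes, noradrenaline acts on the beta3-adrenergic receptor (Adrb3) and raises cAMP, which phosphodiesterase 3B (Pde3b) degrades in response to insulin. Adipose triglyceride lipase (ATGL, Pnpla2) cuts the first fatty acid, hormone-sensitive lipase (Lipe) the next, and monoglyceride lipase (Mgll) the last, while CGI-58 (Abhd5) activates ATGL and G0S2 (G0s2) inhibits it. Outside the cell, lipoprotein lipase (Lpl) releases fatty acids from circulating triglyceride. It is carried to the capillary surface by GPIHBP1 (Gpihbp1), an endothelial protein, and is inactivated by ANGPTL4 (Angptl4), whose gene is a known glucocorticoid target.

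Values are given in CPM, the estimated count of a gene per 1000000 counts of its library, and the library totals lay between 19394572 and 20940660. Changes are log2 ratios of 2 libraries with 0.5 CPM added to both, and a gene was called when the ratio passed 2-fold. The 95% intervals are exact binomial intervals of the count ratio without the added 0.5 CPM, so for low counts they are not centred on the printed change. They cover counting error only and say nothing of the spread between mice. Nr3c1, the deleted gene, was at 46.4 CPM in the GRmKO vehicle library of gastrocnemius against 113 CPM in GRf/f, and at 35.5 CPM against 90.4 CPM under CORT, and in liver and WAT it lay between 45.2 and 158 CPM.

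Each tissue carried the markers of its labelled type. The adipocyte markers summed to 24666 to 30587 CPM in WAT (Adipoq 2016 to 4341 and Retn 1317 to 1811 CPM), the skeletal muscle markers to 89589 to 121489 CPM in gastrocnemius (Ckm 9802 to 14143 and Acta1 32605 to 43035 CPM), and the hepatocyte markers to 74497 to 135625 CPM in liver (Alb 49853 to 111499 and Apoa1 2555 to 6749.6 CPM). In the WAT libraries the epididymis list summed to between 0 and 1.25 CPM with Crisp1 and Lcn5 at 0, the mesothelial list to 296 to 433 CPM (Msln 39.8 to 65.7 and Upk3b 155 to 225 CPM), and the brown adipocyte list to 6.88 to 12.8 CPM with Ucp1 between 0 and 0.0501 CPM and Cidea between 2.16 and 8.27 CPM. The gastrocnemius libraries also held adipocyte markers at 312 to 682 CPM and, in GRmKO, hepatocyte markers at 79.0 CPM (vehicle) and 253 CPM (CORT) against 6.65 and 9.43 CPM in GRf/f.

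All 10 genes were above 0 in every library and at 3 or more estimated counts, and in the GRf/f vehicle libraries all 10 were highest in WAT. Adrb3 showed the steepest gradient, at 509.5 CPM in WAT against 1.27 CPM in gastrocnemius and 0.943 CPM in liver, a 403-fold and a 540.3-fold difference (95% intervals 274 to 625 and 345 to 874). Lipe was 87.5-fold higher in WAT than in gastrocnemius and 159-fold higher than in liver. Abhd5 was the most evenly spread, 5.06-fold higher in WAT than in gastrocnemius and 5.97-fold higher than in liver, and Angptl4 was 161-fold higher than in gastrocnemius but 4.44-fold higher than in liver. These folds rest on library totals alone, which different genes dominate in each tissue.

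Genes can be ordered against each other only per length of transcript. On this per-length scale (count divided by the length of the 1 transcript named for the entry, then rescaled within the library as TPM is), Lpl led the 10 genes in WAT at 4651 to 5300.1, followed by Pnpla2 at 1982 to 2726, Lipe at 1208 to 1568, Mgll at 651 to 762 and G0s2 at 548 to 728. Abhd5, at 60.4 to 90.8, was the lowest in the GRf/f vehicle library, so that there were 2.70 Abhd5 transcripts per 100 Pnpla2 transcripts on this scale (95% interval 2.59 to 2.82). The middle of this order depended on the length used, since with the length of all exons of a gene together G0s2 was above Mgll in all 4 WAT libraries (for example 900.4 against 713 in GRf/f vehicle) and above Lipe in 2 of 4 (969.5 against 919 in GRmKO vehicle and 717 against 715 in GRmKO CORT). In gastrocnemius the order again began with Lpl (225 to 266) and Pnpla2 (129 to 291), whereas Adrb3 (0.231 to 0.689) was last. Pnpla2 was above Lpl there in 1 of the 4 libraries (GRf/f CORT), and in 3 of 4 with the exon length. In liver G0s2 led in the GRf/f vehicle library, with a range of 60.3 to 261 over the 4 libraries, ahead of Mgll (56.8 to 123), and Adrb3 (0.132 to 1.11) was again last.

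In WAT, 2 of the 10 genes, Adrb3 and Gpihbp1, were lower past 2-fold with CORT in both genotypes, and none was higher. In GRf/f, 8.07% of the 14218 genes tested (those above 0 in all 4 WAT libraries) were past 2-fold lower and 5.49% higher, and in GRmKO 5.63% lower and 3.47% higher. Over all tested genes, 445 (3.13%) were lower and 288 (2.03%) higher in both genotypes. The median change of the 10 genes was -0.31 in GRf/f and -0.25 in GRmKO, beside -0.07 and -0.12 over all tested genes. Thus transcripts of the 3 lipases of the triglyceride cascade differed little between CORT and vehicle, while Adrb3 was the most reduced of the 10.

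**Figure D1:**
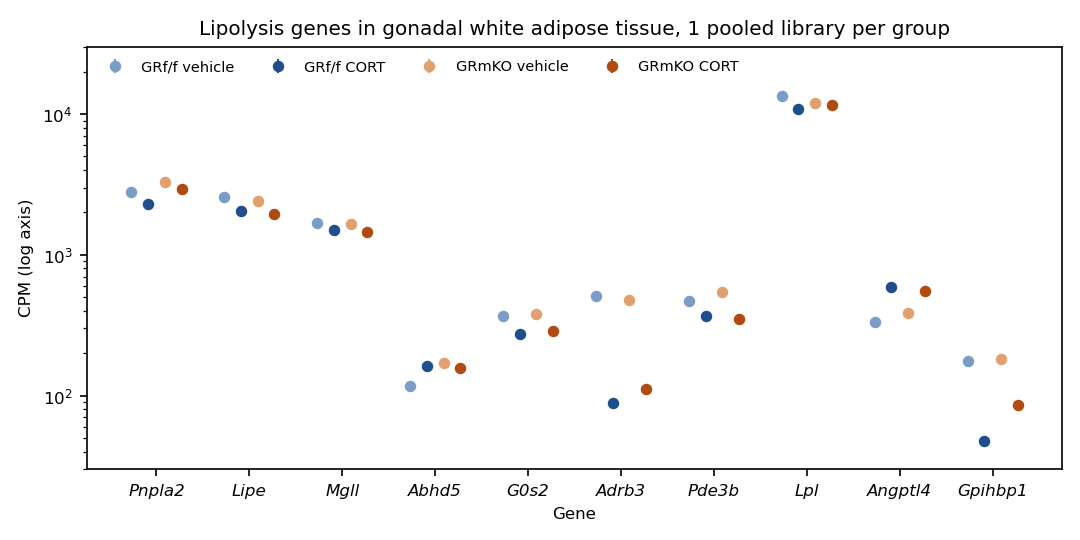
Level of each of the 10 genes in the 4 WAT libraries, in CPM on a log axis, with 1 point per library (a pool of 3 mice) and bars for the 95% Wilson counting interval, most of which are smaller than the points. The CORT points of Adrb3 (88.7 and 111 CPM) and Gpihbp1 (47.2 and 85.9 CPM) lie well under their vehicle points, whereas the points of Pnpla2, Lipe and Mgll lie close together.

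Pnpla2 stood at 2803 CPM (GRf/f vehicle), 2299.6 CPM (GRf/f CORT), 3315 CPM (GRmKO vehicle) and 2957 CPM (GRmKO CORT). The GRf/f CORT library was the lowest and the GRmKO vehicle library the highest, and at the same treatment GRmKO was above GRf/f by 0.24 under vehicle and 0.36 under CORT on the log2 scale. Lipe was 2557, 2032, 2414 and 1949 CPM in the same order of libraries, so that the CORT libraries were at 79.5% and 80.8% of vehicle. Mgll was 1695, 1499.8, 1663 and 1450.4 CPM, with changes of -0.18 and -0.20. Scaling by TMM or median-of-ratios factors raised the median change of all tested genes in GRmKO by 0.13. The GRmKO changes of Pnpla2 (-0.17) and Mgll (-0.20) were little larger than that. None of the 3 lipases passed 2-fold in any WAT comparison, and among all tested genes 32.2% to 45.6% moved at least as far in the same direction with CORT.

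The partners of ATGL moved by less than 2-fold as well. Abhd5, the activator, was 117 CPM in GRf/f vehicle, 162 CPM in GRf/f CORT, 169.6 CPM in GRmKO vehicle and 158 CPM in GRmKO CORT. Its GRf/f vehicle library was the low one and the other 3 were close, so the log2 change with CORT was 0.47 in GRf/f and -0.10 in GRmKO, the latter turning to 0.03 when libraries were scaled by TMM or median-of-ratios factors. G0s2, the inhibitor, was 367, 275, 377 and 289 CPM, lower with CORT by a similar amount in both genotypes (-0.41 and -0.38). Per length, G0s2 amounted to 30.8 per 100 Pnpla2 in GRf/f vehicle and 28.2 in GRf/f CORT, and to 26.7 and 23.0 in GRmKO vehicle and CORT.

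The promoter of G0s2 is shown because this gene moved in the other tissues, and that of Pnpla2 because its product is the enzyme that G0S2 inhibits. Both are from RefSeq (GRCm38.p6), 5′ to 3′ on the strand of the gene, and end just before the annotated start. They cover chr1:193273218-193273438 on the minus strand (221 bases, G0s2) and chr7:141454938-141455187 on the plus strand (250 bases, Pnpla2). Capitals mark a GC box (GGGCGG) or 1 arm of a cAMP response element (TGACG), on either strand.
G0s2: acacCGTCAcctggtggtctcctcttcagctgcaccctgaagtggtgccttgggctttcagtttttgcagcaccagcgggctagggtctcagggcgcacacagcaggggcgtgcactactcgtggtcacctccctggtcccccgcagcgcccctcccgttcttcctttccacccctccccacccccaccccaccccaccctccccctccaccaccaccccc
Pnpla2: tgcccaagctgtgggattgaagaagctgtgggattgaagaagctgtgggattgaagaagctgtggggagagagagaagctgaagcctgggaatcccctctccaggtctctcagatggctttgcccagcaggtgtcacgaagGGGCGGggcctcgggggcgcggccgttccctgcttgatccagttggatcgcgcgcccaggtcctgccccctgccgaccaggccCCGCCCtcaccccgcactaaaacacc

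The stretch shown for G0s2 is 67.0% G and C and holds 1 TGACG and no GC box (the GC box counted for G0s2 below lies in the last 29 of the 250 bases searched, which GENCODE places inside the gene and which are not printed), and that of Pnpla2 is 63.2% G and C and holds 2 GC boxes. Of the 10 genes, 5 had entries in the promoter table (G0s2, Mgll, Lipe, Pnpla2 and Abhd5, with 7 start sites), and Adrb3, Pde3b, Angptl4, Lpl and Gpihbp1 are named only. In the 250 bases before these starts, the full glucocorticoid response element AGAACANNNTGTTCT was found in none of the 5 genes and in 0.00913% of all 32851 promoters, and the relaxed form GNACANNNTGTNC in none of the 5 and in 0.387% of all. A single arm of it, AGAACA, was found for Mgll (16.1% of all promoters hold it), and TGACG for Abhd5 and G0s2 (17.8%). The complete cAMP response element TGACGTCA (1.55%) and AGGTCANAGGTCA, the element of peroxisome proliferator-activated receptors (0.0335%), were in none, the forkhead box O site GTAAACA was in those of Lipe and Mgll (3.17%), and GGGCGG was in all 5 (32.7%). Both strands were searched, AGAACA and TGACG are parts of the longer forms, and such matches describe letters only.

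Adrb3 had the largest change of the 10 genes in WAT. Its level was 509.5 CPM in GRf/f vehicle, 88.7 CPM in GRf/f CORT, 474 CPM in GRmKO vehicle and 111 CPM in GRmKO CORT. Both vehicle libraries were high and both CORT libraries low, with log2 changes of -2.52 in GRf/f (95% interval -2.60 to -2.45) and -2.08 in GRmKO (-2.16 to -2.02). Among all tested genes, 0.478% in GRf/f and 0.387% in GRmKO fell at least as far. The fall in GRmKO was 0.43 smaller on the log2 scale (95% counting interval 0.33 to 0.53), and the CORT library of GRmKO was 0.33 above that of GRf/f. The adipocyte marker sum in the CORT libraries was 86.8% of vehicle in GRf/f and 80.6% in GRmKO, while Adrb3 was at 17.4% and 23.5% (in bulk tissue, fewer cells of a type and less RNA per cell cannot be told apart). That sum covers single markers that moved far apart: Cfd (adipsin) was at 6.45% and 11.2% of vehicle, lower still than Adrb3, Adipoq at 53.2% and 61.0%, Retn at 86.6% and 126%, and Lep at 774% and 248%. The part of these adipocyte changes in the change of Adrb3 was not tested.

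Pde3b, which acts downstream of the receptor by breaking down cAMP, was 469, 369, 539.9 and 348 CPM, with changes of -0.35 in GRf/f and -0.63 in GRmKO that did not pass 2-fold. Per length, there were 256 Adrb3 per 100 Pde3b in GRf/f vehicle (95% interval 249 to 263) and 56.6 in GRf/f CORT (53.7 to 59.6). In GRmKO the same ratio was 207 under vehicle and 75.4 under CORT. On this scale Adrb3 transcripts thus outnumbered Pde3b transcripts in both vehicle libraries and were outnumbered by them in both CORT libraries. The proteins were not measured.

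The extracellular arm behaved differently from gene to gene. Lpl, the enzyme, was 13359.6 CPM in GRf/f vehicle, 10880.3 CPM in GRf/f CORT, 11957 CPM in GRmKO vehicle and 11606 CPM in GRmKO CORT. Its 4 libraries lay within a narrow range, with changes of -0.30 in GRf/f and -0.04 in GRmKO, the latter turning to 0.09 under TMM or median-of-ratios scaling. Angptl4, its inhibitor, was 333, 594, 386 and 549 CPM. Both CORT libraries were above both vehicle libraries, by 0.84 in GRf/f and 0.51 in GRmKO, under the 2-fold threshold, and 7.83% and 10.6% of all tested genes were raised at least as far. Per length, Angptl4 went from 5.51 to 12.1 per 100 Lpl in GRf/f and from 7.14 to 10.5 in GRmKO.

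Gpihbp1, the capillary carrier of the enzyme, was 177 CPM in GRf/f vehicle, 47.2 CPM in GRf/f CORT, 181 CPM in GRmKO vehicle and 85.9 CPM in GRmKO CORT. The vehicle libraries were alike and the CORT libraries low, that of GRf/f lowest, with changes of -1.89 in GRf/f (95% interval -2.01 to -1.80) and -1.07 in GRmKO (-1.16 to -0.99). The latter was near the threshold and became -0.93 under TMM and -0.94 under median-of-ratios scaling, so the GRmKO call depended on the scaling. Under CORT, GRmKO was 0.86 above GRf/f (0.75 to 0.98), and 2.17% of all tested genes differed at least as far. Gpihbp1 per 100 Lpl, per length, went from 6.60 to 2.16 in GRf/f and from 7.54 to 3.69 in GRmKO.

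Endothelial markers were lower in the same libraries as Gpihbp1. The 8 markers summed to 806 CPM in GRf/f vehicle, 289.9 CPM in GRf/f CORT, 739 CPM in GRmKO vehicle and 391 CPM in GRmKO CORT, so that the CORT sum was 36.0% of vehicle in GRf/f and 52.9% in GRmKO, beside 26.7% and 47.6% for Gpihbp1. In GRf/f 7 of the 8 fell past 2-fold, and in GRmKO 2 of the 8 did. Pecam1 went from 98.5 to 36.6 CPM in GRf/f and from 101 to 57.8 CPM in GRmKO, and Cdh5 from 306 to 102 and from 264 to 142 CPM. Per 100 CPM of the endothelial sum there were 21.9 CPM of Gpihbp1 in GRf/f vehicle, 16.3 in GRf/f CORT, 24.4 in GRmKO vehicle and 22.0 in GRmKO CORT. The macrophage marker sum was higher in the CORT libraries, from 1015 to 2290.3 CPM in GRf/f and from 1257 to 2271 CPM in GRmKO (Adgre1 23.3 to 65.1 and Cd68 50.9 to 171 CPM over the 4 libraries). Ptprc of the same list went the other way, from 14.6 to 0 CPM in GRf/f and from 24.0 to 18.2 CPM in GRmKO. The part of these cell types in the changes of the 10 genes was not tested.

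**Figure D2:**
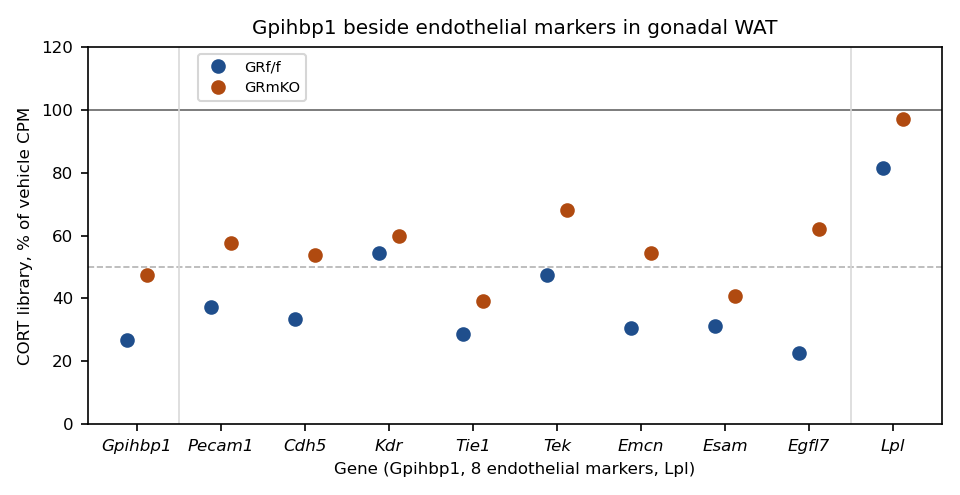
CPM in the CORT library as a percentage of the vehicle library of the same genotype in WAT, for Gpihbp1, the 8 endothelial markers and Lpl, with 1 point per genotype and no replicates. Gpihbp1 lies at 26.7% (GRf/f) and 47.6% (GRmKO), within the spread of the endothelial markers, all of which lie below 100% and each lower in GRf/f than in GRmKO, while Lpl lies at 81.4% and 97.1%.

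Between genotypes, none of the 10 genes passed 2-fold in WAT in either direction. Under vehicle, 1.07% of all tested genes were past 2-fold higher in GRmKO and 1.15% lower, and under CORT 1.43% higher and 1.19% lower. The largest genotype differences among the 10 were Abhd5 under vehicle (0.54) and Gpihbp1 under CORT (0.86).

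Around the 10 genes, 75 other genes of the pathway were listed in 7 groups, of which 70 were tested in WAT. With CORT, 5.49% of all tested genes were past 2-fold higher and 8.07% lower in GRf/f, and 3.47% and 5.63% in GRmKO. Of the 70, 5 were higher and 9 lower in GRf/f, and 3 higher and 11 lower in GRmKO. The 9 that moved in the same direction in both genotypes (7 lower, 2 higher) included several receptors that restrain lipolysis. Hcar1, the lactate receptor, went from 151 to 17.8 CPM in GRf/f (-3.04) and from 145 to 31.7 CPM in GRmKO (-2.18). Hcar2, the receptor for ketone bodies and nicotinic acid, went from 24.8 to 7.68 CPM and from 22.2 to 10.7 CPM. Adra2a, the alpha2A-adrenergic receptor, was scarce and went from 2.96 to 0.603 CPM and from 1.27 to 0.247 CPM. Akt2, an insulin signalling kinase, went from 442 to 182 CPM (-1.27) and from 447 to 212 CPM (-1.08). TMM and median-of-ratios factors raised the median change by 0.13 in GRmKO, and by 0.07 and 0.08 in GRf/f. Calls near the threshold therefore depended on the scaling: Akt2 and Hcar2 (-1.02) in GRmKO, and Irf4 (-1.03) in GRf/f.

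Adrb3, which stimulates lipolysis, and Hcar1, Hcar2 and Adra2a, which restrain it, were thus lower together in the CORT libraries of WAT. Of the transcription factors, Srebf1, which drives lipogenic genes, went from 219 to 52.2 CPM (-2.06) and from 269 to 87.4 CPM (-1.62), and Irf4, a factor that drives lipase genes in adipocytes, from 9.54 to 4.42 CPM and from 23.3 to 9.98 CPM. Ces1f, a carboxylesterase of a cluster of near-identical genes whose reads may be shared, went from 209 to 33.9 CPM (-2.61) and from 261 to 53.1 CPM (-2.29). The higher pair were apolipoprotein genes at low level: Apoc2, the activator of lipoprotein lipase, rose from 1.06 CPM by 1.82 in GRf/f and from 0.654 CPM by 1.72 in GRmKO (log2), and Apoc3, an inhibitor, from 1.90 to 4.32 CPM and from 1.57 to 7.54 CPM. Apolipoproteins are also made by hepatocytes, whose markers summed to 53.6, 58.2, 66.6 and 109 CPM in GRf/f vehicle and CORT and GRmKO vehicle and CORT (Alb 44.7 to 84.8 and Apoa1 1.56 to 3.77 CPM), and their part was not tested.

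By group, in GRf/f and then GRmKO, catecholamine and cAMP signalling had 2 higher and 1 lower of 17, then 0 and 3. Antilipolytic receptors and insulin signalling had 0 higher and 3 lower of 10 in each genotype, with medians of -0.40 and -0.44. Lipid droplet coat and other ATGL partners had 0 and 1 of 9, then 1 and 1, and other lipid hydrolases 0 and 1 of 8, then 0 and 2. Lipoprotein lipase maturation and control had 3 higher and 0 lower of 10, then 2 and 0, with medians of 0.62 and 0.31. Glycerol and fatty acid export, uptake and binding had 0 and 1 of 7, then 0 and 0, and the transcription factors 0 and 2 of 9 in each genotype. Beside these small counts, 5.49% of all tested genes were higher and 8.07% lower in GRf/f, and 3.47% and 5.63% in GRmKO.

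**Figure D3:**
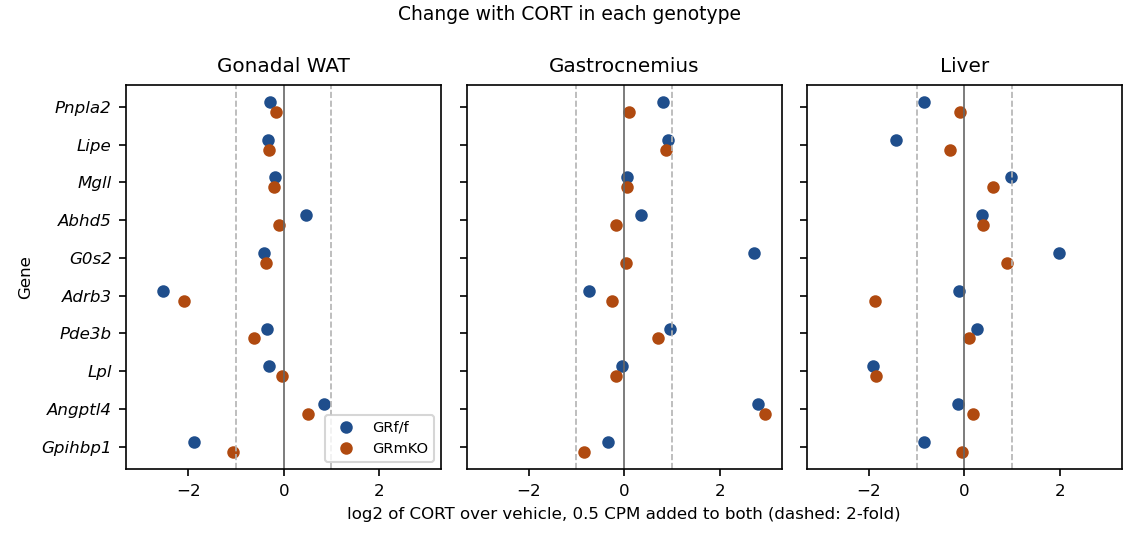
Log2 change of each of the 10 genes with CORT in GRf/f and GRmKO, in WAT, gastrocnemius and liver, with 1 point per genotype, no replicates and dashed lines at 2-fold. Adrb3 and Gpihbp1 stand out to the left in WAT, Angptl4 to the right in gastrocnemius in both genotypes together with the GRf/f point of G0s2 (2.73, against 0.04 in GRmKO), and Lpl to the left in liver in both genotypes. In liver the GRf/f points of G0s2 (1.97) and Lipe (-1.43) and the GRmKO point of Adrb3 (-1.87, on few counts) are also past 2-fold.

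In gastrocnemius, the tissue in which the receptor was deleted, 2 of the 10 genes rose past 2-fold with CORT in GRf/f (G0s2 and Angptl4) and 1 in GRmKO (Angptl4), and none fell. Over the 13543 tested genes 3.26% were higher and 4.72% lower in GRf/f, and 1.51% higher and 5.02% lower in GRmKO. In both genotypes, 65 genes (0.480%) were higher and 178 (1.31%) lower. The median change of the 10 genes was 0.59 in GRf/f and 0.04 in GRmKO, beside -0.08 and -0.10 over all tested genes.

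G0s2 was 9.41 CPM in GRf/f vehicle, 65.4 CPM in GRf/f CORT, 31.9 CPM in GRmKO vehicle and 32.8 CPM in GRmKO CORT. The GRf/f vehicle library was lowest, the GRf/f CORT library highest, and both GRmKO libraries lay between them at nearly the same level. The log2 change with CORT was 2.73 in GRf/f (95% interval 2.57 to 3.02) and 0.04 in GRmKO (-0.12 to 0.20), and 0.155% of all tested genes rose at least as far in GRf/f. The change in GRmKO was 2.70 below that in GRf/f (difference -2.70, 95% counting interval -3.03 to -2.49), and both treatments entered into this, since GRmKO was 1.71 above GRf/f under vehicle and 0.99 below it (log2 -0.99) under CORT. The GRmKO vehicle library also carried the most macrophage transcripts, at 505 CPM against 153 in GRf/f vehicle, 150.2 in GRf/f CORT and 193 in GRmKO CORT (Adgre1 2.80 to 10.6 and Cd68 4.21 to 22.8 CPM), and their part was not tested.

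Pnpla2 was 224, 396, 196 and 212 CPM in the same order. Only the GRf/f CORT library stood above the other 3, with a change of 0.82 in GRf/f (95% interval 0.77 to 0.88) and 0.11 in GRmKO (0.05 to 0.17), and under CORT GRmKO was 0.90 below GRf/f (log2 -0.90). This was short of 2-fold, and 4.75% of all tested genes rose at least as far in GRf/f. Per length, G0s2 amounted to 9.90 per 100 Pnpla2 in GRf/f vehicle and to 38.8, 38.2 and 36.4 in GRf/f CORT, GRmKO vehicle and GRmKO CORT. The counting intervals of the latter 3 ratios overlapped, although the levels of both genes differed between those libraries. Abhd5 was 23.1, 29.8, 34.6 and 30.8 CPM, with changes of 0.36 and -0.16.

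Angptl4 rose from 2.06 to 17.3 CPM in GRf/f (log2 2.80, 95% interval 2.60 to 3.57) and from 1.64 to 16.1 CPM in GRmKO (2.95, 2.77 to 3.86). Both vehicle libraries were low and both CORT libraries high, and the changes in the 2 genotypes differed by 0.16 (95% counting interval -0.47 to 0.92). Only 0.133% of tested genes in GRf/f and 0.0591% in GRmKO rose at least as far. Lpl was 719, 700.2, 761 and 678 CPM, so that Angptl4 per 100 Lpl, per length, went from 0.634 to 5.47 in GRf/f and from 0.477 to 5.25 in GRmKO.

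Lipe was 29.2 CPM in GRf/f vehicle, 55.7 CPM in GRf/f CORT, 26.6 CPM in GRmKO vehicle and 49.1 CPM in GRmKO CORT. Both CORT libraries were higher, by 0.92 and 0.87, just short of 2-fold, which both changes passed under TMM and median-of-ratios scaling. Pde3b followed the same pattern at a lower level, with 5.78, 11.7, 4.96 and 8.46 CPM and changes of 0.96 and 0.71. Its GRf/f change also passed 2-fold under those scalings. Mgll lay between 82.8 and 86.4 CPM in all 4 libraries. Adrb3 was between 0.473 and 1.27 CPM, or 9.63 to 25.1 estimated counts.

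Adipocyte transcripts in the muscle samples also differed with CORT. The adipocyte marker sum was 312 CPM in GRf/f vehicle, 682 CPM in GRf/f CORT and 404 CPM in GRmKO vehicle, and in GRmKO CORT it was at 130.3% of the latter. Of 9 markers tested, 6 rose and 1 fell past 2-fold in GRf/f, and 5 rose and none fell in GRmKO. Adipoq was 14.6, 63.0, 16.8 and 48.2 CPM and Retn 5.93, 21.6, 6.90 and 20.3 CPM in GRf/f vehicle, GRf/f CORT, GRmKO vehicle and GRmKO CORT, and Lep went from 2.01 to 93.6 CPM in GRf/f and from 3.35 to 31.4 CPM in GRmKO. Cfd went the other way, from 53.4 to 22.6 CPM in GRf/f and from 48.8 to 29.6 CPM in GRmKO, and Nrip1 was at 88.0% and 69.9% of vehicle. Hepatocyte markers were highest in the GRmKO CORT library, as given above. The part of adipocyte or hepatocyte transcripts in the levels of the 10 genes in muscle was not tested.

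**Figure D4:**
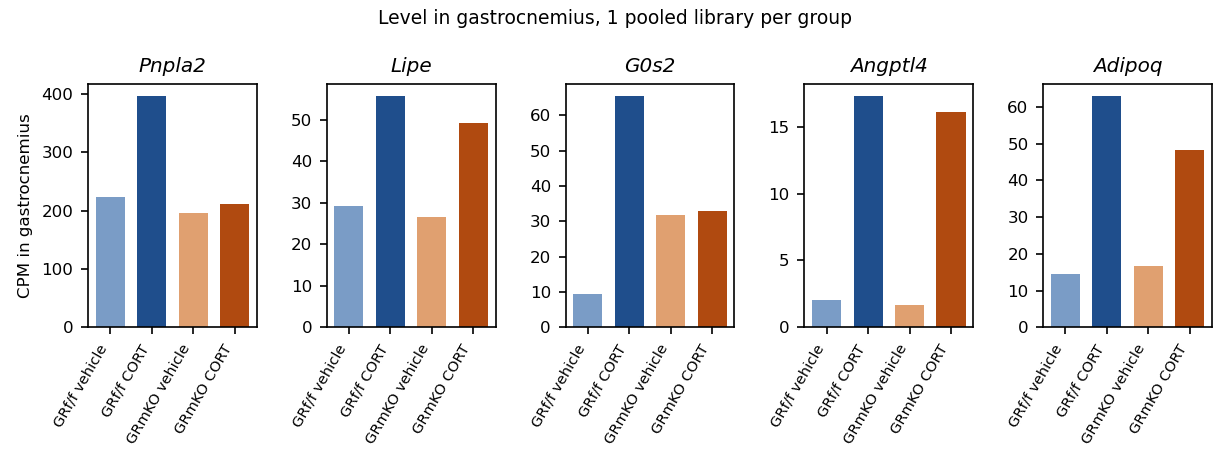
Level in gastrocnemius in CPM (bars, 1 library each, no replicates) of Pnpla2, Lipe, G0s2 and Angptl4 and of the adipocyte marker Adipoq, each on its own axis. Angptl4 and Adipoq are higher in both CORT libraries than in both vehicle libraries (16.1 to 17.3 against 1.64 to 2.06 CPM for Angptl4), and G0s2 and Pnpla2 are highest in GRf/f CORT (65.4 and 396 CPM).

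Gpihbp1 was 31.5 CPM in GRf/f vehicle, 24.8 CPM in GRf/f CORT, 64.1 CPM in GRmKO vehicle and 35.5 CPM in GRmKO CORT. The GRmKO vehicle library stood apart, 1.02 above GRf/f vehicle (95% interval 0.89 to 1.17), a value that became 0.94 under TMM scaling. Between genotypes under vehicle, 2 of the 10 genes were therefore past 2-fold higher in GRmKO (G0s2 and Gpihbp1) and none lower, beside 4.59% and 3.18% of all tested genes. Under CORT none was past 2-fold, beside 4.40% higher and 5.31% lower. The endothelial sum was 388, 330.4, 426 and 297 CPM (Pecam1 40.0 to 51.6 and Cdh5 87.3 to 164 CPM), and Gpihbp1 per 100 CPM of it was 8.11, 7.52, 15.0 and 11.9, so that Gpihbp1 was high for the endothelial sum in both GRmKO libraries.

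Of the other pathway genes, 66 were tested in gastrocnemius. With CORT, 3.26% of all tested genes were past 2-fold higher and 4.72% lower in GRf/f, and 1.51% and 5.02% in GRmKO. Of the 66, 14 were higher and 2 lower in GRf/f, and 6 higher and 2 lower in GRmKO. The 3 largest changes shared by both genotypes were in Pnpla3, a relative of Pnpla2 that binds CGI-58 (2.47 to 21.4 CPM in GRf/f and 0.698 to 4.91 CPM in GRmKO), Prkar2b, a regulatory subunit of protein kinase A (5.23 to 22.7 and 3.45 to 13.9 CPM), and Pnpla6, a lysophospholipase (5.91 to 1.65 and 6.32 to 1.54 CPM). In GRmKO against GRf/f, 2 of the 66 were higher and 3 lower under vehicle, and 4 higher and 10 lower under CORT. Over all tested genes the shares were 4.59% higher and 3.18% lower under vehicle, and 4.40% and 5.31% under CORT.

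In liver, 3 of the 10 genes passed 2-fold with CORT in GRf/f, with G0s2 higher and Lipe and Lpl lower, and 2 in GRmKO, with Adrb3 and Lpl lower and none higher. Of the 12485 genes tested, 5.90% were higher and 5.72% lower in GRf/f, and 2.80% higher and 2.82% lower in GRmKO, with 177 (1.42%) higher and 193 (1.55%) lower in both. The median change of the 10 genes was -0.13 in GRf/f and 0.01 in GRmKO, beside 0.00 and 0.05 over all tested genes. The GRf/f liver samples carry record numbers apart from the rest of the series, and whether they were processed separately is not stated. Every genotype comparison in liver coincides with this division.

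G0s2 was 38.8 CPM in GRf/f vehicle, 153 CPM in GRf/f CORT, 77.1 CPM in GRmKO vehicle and 144 CPM in GRmKO CORT. Both CORT libraries were high and close to each other, and the vehicle libraries differed, with GRmKO 0.98 above GRf/f (95% interval 0.87 to 1.12). The change was 1.97 in GRf/f (1.87 to 2.10) and 0.89 in GRmKO (0.81 to 0.99). Pnpla2 went the other way in GRf/f, at 82.6, 45.5, 66.7 and 62.1 CPM, with changes of -0.85 and -0.10. The proportion of G0s2 to Pnpla2 transcripts was therefore higher with CORT in both genotypes: per length there were 110.4 G0s2 per 100 Pnpla2 in GRf/f vehicle and 793 in GRf/f CORT, and 272 and 545 in GRmKO vehicle and CORT.

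Mgll was 154, 305, 155 and 234 CPM, with changes of 0.98 and 0.59 that did not pass 2-fold. Its vehicle libraries were equal within counting error, and the GRf/f CORT library was the highest. Lipe was scarce in liver and went from 16.0 to 5.63 CPM in GRf/f (-1.43, 95% interval -1.83 to -1.20) and from 11.4 to 9.10 CPM in GRmKO (-0.31). Abhd5 was 19.6, 25.5, 16.8 and 22.1 CPM, higher with CORT by 0.37 and 0.39. Of the 3 lipases, only Lipe in GRf/f passed 2-fold in liver.

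Lpl was 27.7 CPM in GRf/f vehicle, 6.92 CPM in GRf/f CORT, 24.3 CPM in GRmKO vehicle and 6.35 CPM in GRmKO CORT. Both vehicle libraries were high and both CORT libraries low, and the changes of -1.92 (95% interval -2.27 to -1.73) and -1.85 (-2.22 to -1.66) differed by 0.07 (95% counting interval -0.32 to 0.45). Of all tested genes, 1.00% in GRf/f and 0.457% in GRmKO fell at least as far. Macrophage markers were also lower with CORT, from 205 to 68.7 CPM in GRf/f and from 165 to 106 CPM in GRmKO (Adgre1 2.12 to 10.3 and Cd68 3.47 to 10.9 CPM over the 4 libraries), and their part was not tested. Angptl4 was nearly level at 74.9, 68.1, 62.2 and 70.8 CPM, unlike in WAT and muscle. Per 100 Lpl, per length, it went from 599.6 to 2176 in GRf/f and from 567 to 2465 in GRmKO, through the fall of Lpl.

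Gpihbp1 was 17.6, 9.59, 17.0 and 16.2 CPM, with only the GRf/f CORT library low (-0.85 in GRf/f and -0.06 in GRmKO). The endothelial sum was 87.1, 57.4, 86.6 and 77.6 CPM in the same libraries, again lowest in GRf/f CORT. Single markers did not all follow the sum: in GRf/f Cdh5 went from 22.4 to 14.3 CPM and Kdr from 29.9 to 13.3 CPM, but Pecam1 rose from 2.42 to 6.29 CPM, and in GRmKO Tek rose from 2.54 to 8.93 CPM. Their part in the level of Gpihbp1 was not tested. Pde3b was 64.5, 77.4, 72.6 and 77.4 CPM. Adrb3 was 0.943, 0.830, 2.24 and 0.251 CPM, from 5.22 to 46.4 estimated counts, and its call in GRmKO rests on these few counts.

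No gene of the 10 passed 2-fold between genotypes in liver. Under vehicle 1.26% of all tested genes were higher in GRmKO and 1.04% lower, and under CORT 2.44% higher and 2.27% lower. With CORT, 5.90% of all tested genes were past 2-fold higher and 5.72% lower in GRf/f, and 2.80% and 2.82% in GRmKO. Of the other pathway genes, 63 were tested: 7 were higher and 5 lower with CORT in GRf/f, and 5 and 5 in GRmKO. The 3 largest shared changes were in Fabp5, a fatty acid binding protein (lower by -2.47 in GRf/f to 1.56 CPM and by -1.79 in GRmKO to 1.21 CPM), Plin5, a lipid droplet coat protein that binds ATGL and CGI-58 (11.5 to 64.1 and 11.8 to 37.3 CPM), and Lipg, endothelial lipase (17.8 to 2.29 and 27.6 to 13.1 CPM).

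**Figure D5:**
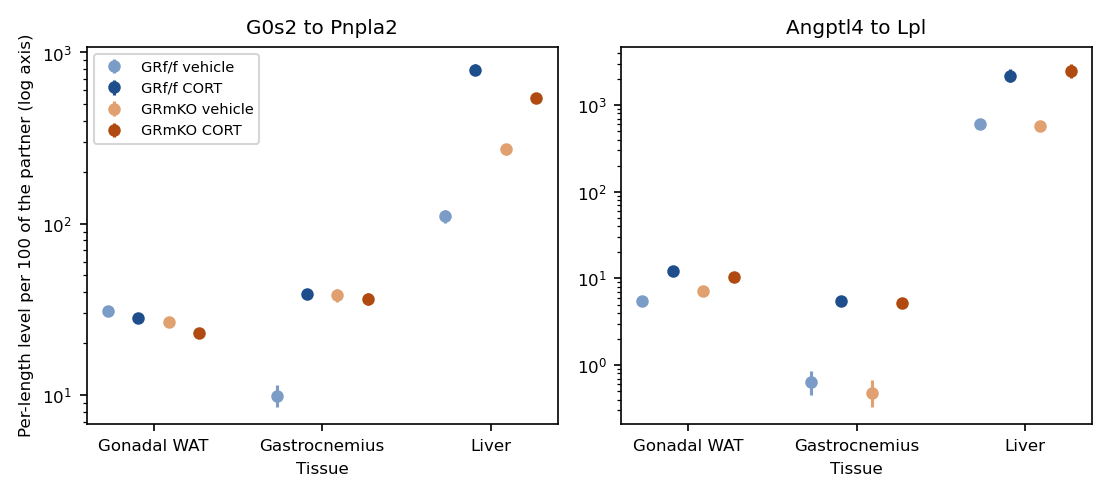
Per-length level of G0s2 per 100 Pnpla2 (left) and of Angptl4 per 100 Lpl (right) in each of the 12 libraries, on log axes, with 95% counting intervals and no replicates. G0s2 per 100 Pnpla2 lies between 23.0 and 30.8 in WAT, is lowest in the GRf/f vehicle library of muscle (9.90) and exceeds 100 in all liver libraries, and Angptl4 per 100 Lpl is higher with CORT than with vehicle in every tissue and genotype.

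Side by side, the same gene differed in its response between tissues. Adrb3 was abundant and reduced by CORT in WAT, while in gastrocnemius and liver it was at or below 2.24 CPM. G0s2 was lower with CORT in WAT (-0.41 and -0.38), higher in liver (1.97 and 0.89), and in muscle changed by 2.73 in GRf/f and 0.04 in GRmKO. Angptl4 was higher with CORT in WAT (0.84 and 0.51) and in muscle (2.80 and 2.95), with values of -0.14 and 0.18 in liver. Of the 3 tissues, Lpl passed 2-fold in liver, where its level was 6.35 to 27.7 CPM against 10880.3 to 13359.6 CPM in WAT. Differences between tissues were not tested, since each tissue had 1 library per group.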

How the data were processed

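RNA was pooled from 3 mice per group and sequenced as 100-bp paired reads on a DNBSEQ-G400. The authors quantified it with Salmon 1.2.1 against protein-coding transcripts of GENCODE M20 (GRCm38), made length-scaled estimated counts with tximport in R 3.5.0, and deposited these expected counts, 1 file per library and 1 entry per gene symbol. The paper names a gene-level summary step in tximport. It also states that, among duplicated gene names, the entry with the largest total counts was kept. Each entry carries 1 transcript ID, so whether it sums all transcripts of a gene is not settled by this description.

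Counts were divided by library totals (19394572 to 20940660) to give CPM. Genes detected (above 0) in each of a tissue's 4 libraries were tested: log2 ratios with 0.5 CPM added, called past 2-fold. Intervals are exact binomial (ratios) or Wilson (CPM), at 95%, for counting error only, and 3 counts was the floor. With 1 library per group there was no p-value. NOISeq, used by the authors, rests here on simulated replicates and was not used. The script was tested on simulated data. Scaling factors for the alternatives came from edgeR 4.0.16 (TMM) and DESeq2 1.42.0 (median of ratios). Per-length levels used the length of the transcript named for each entry, from GENCODE M21, or as an alternative all exons of the gene. Python 3.11.15, pandas 2.3.3 and scipy 1.17.1 were used.

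The 10 genes and the pathway and marker lists were chosen with earlier results of these data known, and the Gpihbp1 to endothelial ratio and the promoter motifs were added after the values were seen. All 10 genes are named. Other pathway genes are named where past 2-fold the same way with CORT in both genotypes (in WAT at most 5 per list, elsewhere the 3 largest), and markers by list, with the first 2.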

Additional observations from a re-analysis of the deposited data

Results flagged for a closer look

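In 3 cases the change with CORT had opposite signs in the 2 genotypes, each with 1 library per group, and the difference was not tested. Abhd5 in WAT changed by 0.47 in GRf/f and -0.10 in GRmKO, a difference of -0.58 on the log2 scale. The GRmKO value turned positive (0.03) under TMM and median-of-ratios scaling. Abhd5 in gastrocnemius changed by 0.36 in GRf/f and -0.16 in GRmKO, a difference of -0.53. The GRmKO value was -0.02 under TMM and -0.03 under median-of-ratios scaling. Angptl4 in liver changed by -0.14 in GRf/f and 0.18 in GRmKO, a difference of 0.32. None of these 6 changes passed 2-fold.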

How the results depend on the processing

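Of 120 changes of the 10 genes in 12 comparisons, 14 were past 2-fold, and 12 of them stayed so under TMM, median-of-ratios and totals without the 10 most abundant entries. Scaling moved single changes by -0.22 to 0.15, and 8 changes near 0 switched sign under some setting. TMM and median-of-ratios factors moved the median of all tested genes by 0.13 in WAT (CORT in GRmKO) and by 0.14 in gastrocnemius (CORT in GRmKO), and median-of-ratios factors by 0.11 in gastrocnemius (CORT in GRf/f). The share of calls that were higher went from 38.2% to 52.0% (TMM) or 51.6% (median of ratios) in WAT, from 23.2% to 34.6% or 33.9% in gastrocnemius of GRmKO, and from 40.8% to 51.2% (median of ratios) in gastrocnemius of GRf/f.

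Under both TMM and median-of-ratios factors, the genes past 2-fold with CORT went from 2 to 1 in WAT of GRmKO (Gpihbp1 lost), from 2 to 4 in gastrocnemius of GRf/f (Lipe and Pde3b added) and from 1 to 2 in that of GRmKO (Lipe added), and between genotypes in gastrocnemius from 2 to 1 under vehicle (Gpihbp1 lost) and from 0 to 1 under CORT (G0s2 added). With 0.1 CPM added there were 4 in gastrocnemius (CORT in GRf/f) and 1 in liver between genotypes under vehicle and 1 under CORT. At 1.5-fold there were 1 in WAT between genotypes under CORT, in gastrocnemius 6 (CORT in GRf/f), 4 (CORT in GRmKO) and 2 (genotypes under CORT), and in liver 6 (CORT in GRf/f), 4 (CORT in GRmKO), 2 (genotypes under vehicle) and 3 (genotypes under CORT), since a lower threshold calls more. The share of all tested genes past 1.5-fold was not counted, so the 1.5-fold counts cannot be set against it. The filters on low values, 1 CPM added and totals without the 10 most abundant entries left all 12 counts within 1.5 times. No paired analysis was possible because each group was 1 library, and for the same reason no library could be left out. Depth limits Adrb3 in gastrocnemius and liver, with 5.22 to 46.4 estimated counts.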
